A study of Mus musculus with 6 samples.

Results

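The genes of the HIF-1 hypoxia response were examined in CD8+ T cells from the spleens of mice whose tumors had been ablated. The group held 10 genes chosen by name as the transcription factor Hif1a, its oxygen sensors and its classical targets, by a rule that names them and uses no measured value, although earlier results of these data were known when they were chosen. They were Hif1a, Egln1, Egln2, Egln3, Bnip3, Bnip3l, Vegfa, Ankrd37, P4ha1 and Higd1a, 10 of the 28773 gene IDs in each file, and each symbol matched 1 ID. Of these, 9 had a mean level of at least 1 FPKM (sequenced fragments relative to the length of the transcript and the mapped total) and were tested among 12444 genes. Vegfa was below that limit.

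RNA was sequenced from 6 samples collected on day 35, 3 per group. MWA+PBS mice (samples 1 to 3) had microwave ablation (MWA) of an implanted tumor and then injections of phosphate-buffered saline. MWA+2DG mice (samples 4 to 6) had the same ablation and then 2-deoxy-D-glucose (2DG), a glucose analogue that blocks glycolysis. Every sample therefore came from an ablated animal, and no group without ablation or without injection was compared here. Injections began after the ablation and had ended before sampling. The study used female mice, its wild-type animals being BALB/c or C57BL/6, mostly 6 weeks old, and CD8+ T cells were isolated with a magnetic kit. The strain and tumor line of these 6 samples, whether animals were pooled and whether the samples of a group came from separate animals are not stated for these samples. The p-values therefore measure the spread between samples, which may be partly technical. The comparison asks how the hypoxia response genes differed in CD8+ T cells between ablated mice with and without interference with glycolysis.

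HIF-1 is a pair of proteins, an oxygen-sensitive alpha subunit encoded by Hif1a and a stable partner encoded by Arnt. In the presence of oxygen the prolyl hydroxylases encoded by Egln1, Egln2 and Egln3 mark the alpha subunit, the VHL protein binds the mark and the subunit is degraded, so HIF-1 activity is set largely at the protein level and not by Hif1a mRNA. When the subunit escapes, HIF-1 binds short hypoxia response elements near genes for glucose uptake, glycolysis, blood vessel growth and mitochondrial turnover. In T cells, receptor stimulation also raises HIF-1, which accompanies the glycolytic state of effector cells. HIF-1 protein was not measured here.

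The core letters of the hypoxia response element, ACGTG or GCGTG, were searched on both strands of the 250 bases before each gene start in RefSeq (mouse build GRCm38.p6). The files are labelled with another build, mm9, so these positions apply to RefSeq only. Of the 10 genes, 9 had a window in the table and Bnip3l had none. These 9 genes had 11 windows, of which 10 held the core at least once, and 38.6% of the 32851 windows in the table did. The 10 include a Vegfa window downstream of the Vegfa window without a core. The genes were chosen as HIF genes and the windows were not matched for base composition, so these shares were not compared by a test. Windows are shown for the 3 genes called lower and the 2 called higher with 2DG in the test described below. Each is written 5′ to 3′ on the strand of its gene, with the core letters in capitals. A core on the opposite strand reads CACGT or CACGC, and CACGTG holds ACGTG on both strands.
P4ha1, chr10:59323046-59323295, plus strand: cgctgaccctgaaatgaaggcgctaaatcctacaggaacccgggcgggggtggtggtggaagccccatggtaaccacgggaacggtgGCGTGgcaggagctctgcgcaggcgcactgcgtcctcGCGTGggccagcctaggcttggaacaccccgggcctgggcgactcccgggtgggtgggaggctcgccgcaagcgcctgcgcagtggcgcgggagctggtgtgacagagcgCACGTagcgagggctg
Egln3, chr12:54203875-54204124, minus strand: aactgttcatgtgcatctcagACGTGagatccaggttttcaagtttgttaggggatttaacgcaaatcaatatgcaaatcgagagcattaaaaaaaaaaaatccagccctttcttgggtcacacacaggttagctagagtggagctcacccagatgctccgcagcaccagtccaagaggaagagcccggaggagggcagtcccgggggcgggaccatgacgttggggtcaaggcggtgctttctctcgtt
Bnip3, chr7:138909507-138909756, minus strand: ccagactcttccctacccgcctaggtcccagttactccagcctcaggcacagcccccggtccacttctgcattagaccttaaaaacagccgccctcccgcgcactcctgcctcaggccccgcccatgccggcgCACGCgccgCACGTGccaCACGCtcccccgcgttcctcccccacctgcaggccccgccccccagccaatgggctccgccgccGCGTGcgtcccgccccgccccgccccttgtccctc
Egln1, chr8:124949255-124949504, minus strand: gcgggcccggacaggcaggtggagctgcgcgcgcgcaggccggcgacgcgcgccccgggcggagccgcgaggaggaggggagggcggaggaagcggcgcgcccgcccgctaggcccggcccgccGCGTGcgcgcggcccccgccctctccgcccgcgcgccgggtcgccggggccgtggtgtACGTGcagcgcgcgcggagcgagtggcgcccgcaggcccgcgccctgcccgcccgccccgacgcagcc
Egln2, chr7:27166803-27167052, minus strand: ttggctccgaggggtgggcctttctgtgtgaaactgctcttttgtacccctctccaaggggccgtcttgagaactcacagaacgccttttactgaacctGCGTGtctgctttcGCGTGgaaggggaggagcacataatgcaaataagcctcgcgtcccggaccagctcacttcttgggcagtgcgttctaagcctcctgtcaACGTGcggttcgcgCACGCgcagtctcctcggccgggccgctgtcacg

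The P4ha1 window held 3 cores, and the one nearest the start lay at position -16, counted from the gene start. The Bnip3 window held 5, of which 2 were the opposite strands of a single CACGTG. Only 2.58% of all windows held 4 or more, with both strands of a CACGTG counted there too. Egln3 held 1 core, at position -229, while Egln1 held 2 and Egln2 held 4. The 3 genes called lower thus had between 1 and 5 cores and the 2 called higher had 2 and 4. Egln1 and Egln2 turned lower on a second scale given below. So few genes cannot show whether the number of cores goes with direction, which was not tested. Hif1a also held 3 (2 of them the strands of a CACGTG), Ankrd37 held 4 and Higd1a held 2. Vegfa had 2 windows, and the upstream one (chr17:46032378-46032627, minus strand) held no core. The 2 cores of Vegfa lay in the window of a start further downstream (chr17:46025164-46025413). A further Egln2 window, also downstream of the one shown, held 1. A match of these letters describes the sequence and does not show that HIF-1 bound there.

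**Figure D1:**
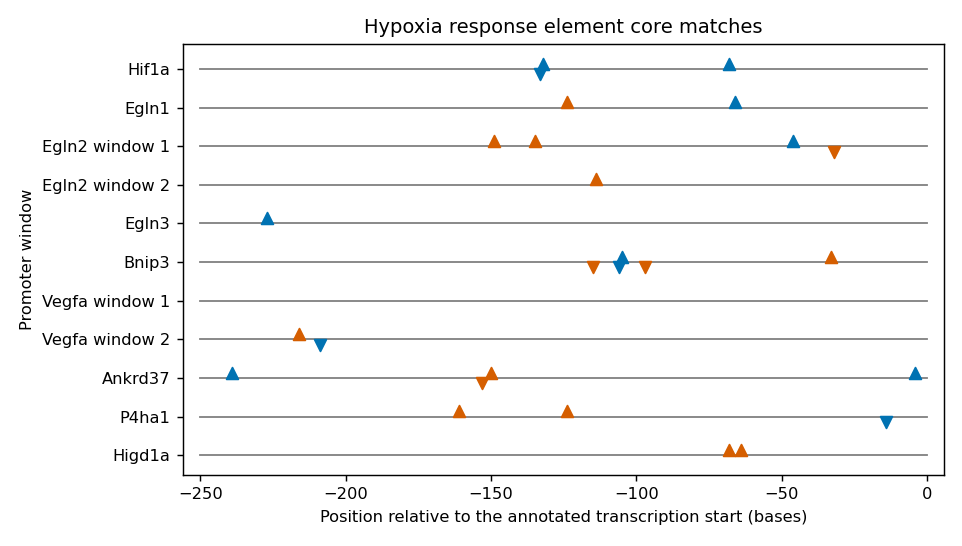
Positions of the core letters ACGTG (blue) and GCGTG (orange) in the 250 bases before each gene start, with upward triangles on the strand of the gene and downward triangles on the opposite strand. Bnip3 held 5 cores, P4ha1 held 3 and Egln3 held 1.

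The samples carried the RNA of T cells and, in amounts that differed between the groups, of other spleen cells. Cd8a was high in every sample, at 231.5 ± 6.96 FPKM without 2DG and 366.4 ± 9.48 with 2DG (SD, n = 3 per group). The summed level of 16 T lineage genes ran from 1777 to 1864 FPKM without 2DG and from 2491 to 2666 with 2DG, and 15 of the 16 rose. All 10 neutrophil markers rose (sum 56.95 to 83.59 against 1573 to 1753) and 5 of 6 B cell markers rose, all but Blnk (9.05 to 10.12 against 39.95 to 44.49). All 11 macrophage markers fell (646.2 to 703.8 against 99.79 to 106.8), as did the 9 tested of 10 erythroid markers (295.3 to 351 against 67.71 to 85.21) and the 3 tested of 4 platelet markers (13.27 to 17.03 against 4.63 to 7.67). Pecam1, the 1 tested of 5 stromal and endothelial markers, did not pass (sum of the 5, 23.64 to 24.94 against 23.79 to 26.93). Pecam1 made up most of that sum. Of the others, all below the filter, Cdh5 was at 0.48, 0.28 and 0.28 FPKM against 0.00, 0.09 and 0.12. Pdgfra was at 0.19, 0.22 and 0.18 against 0.12, 0.09 and 0.10, while the groups overlapped for Col1a1 and Col3a1. None of these markers was listed at 0 in every sample. The kidney gene Kap was at 31.58 and 67.72 FPKM in MWA+PBS samples 1 and 2 and was listed at 0 in the other 4. Kap was the 1 tested of 8 kidney tubule markers and did not pass (sum of the 8, 0.03 to 72.63 against 0.03 to 0.06). The part of these cell mixtures in the values below was not tested, and in bulk RNA fewer cells of a type and less RNA per cell cannot be told apart. The samples listed 22414 to 23340 genes above 0, and mitochondrial genes took 19.4% to 22.8% of the FPKM. FPKM holds no read counts, so the depth is unknown.

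Of the 9 tested genes, 3 fell with 2DG (P4ha1, Egln3 and Bnip3), 2 rose slightly (Egln1 and Egln2) and 4 did not pass the test (Hif1a, Bnip3l, Ankrd37 and Higd1a). The test was limma on log2(FPKM + 1) across all tested genes, at a Benjamini-Hochberg adjusted p under 0.05. Among all 12444 genes, 17.1% were called lower and 22.3% higher. In all, 4907 genes were called, so calls were common among genes of every kind, and the counts of 3 and 2 are described beside that background without a test. The median log2 difference was -0.01 over the 9 genes and 0.05 over all genes. By the rule in the study's methods, an unadjusted P under 0.05 and an absolute log fold change above 0.25, taken here as log2 since the methods name no base, the same 3 genes fell and 0 rose, against 16.6% lower and 21.6% higher of all genes. The same 3 and 2 genes were those whose groups did not overlap, against 21.9% and 30.2% of all genes. FPKM is relative to the library total. With the T lineage genes set equal in all samples, every log2 difference moved by -0.48, the median of all genes became -0.43, and the share of all calls that were higher went from 56.5% to 4.13%. On that scale 8 of the 9 genes were lower, Ankrd37 being the exception, and 0 were higher, where 73.5% of all tested genes were lower and 3.17% higher. Relative to the median of all genes, which is the same on both scales, the log2 difference was -1.17 for P4ha1, -0.55 for Egln3, -0.38 for Bnip3, 0.19 for Egln1 and 0.12 for Egln2.

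**Figure D2:**
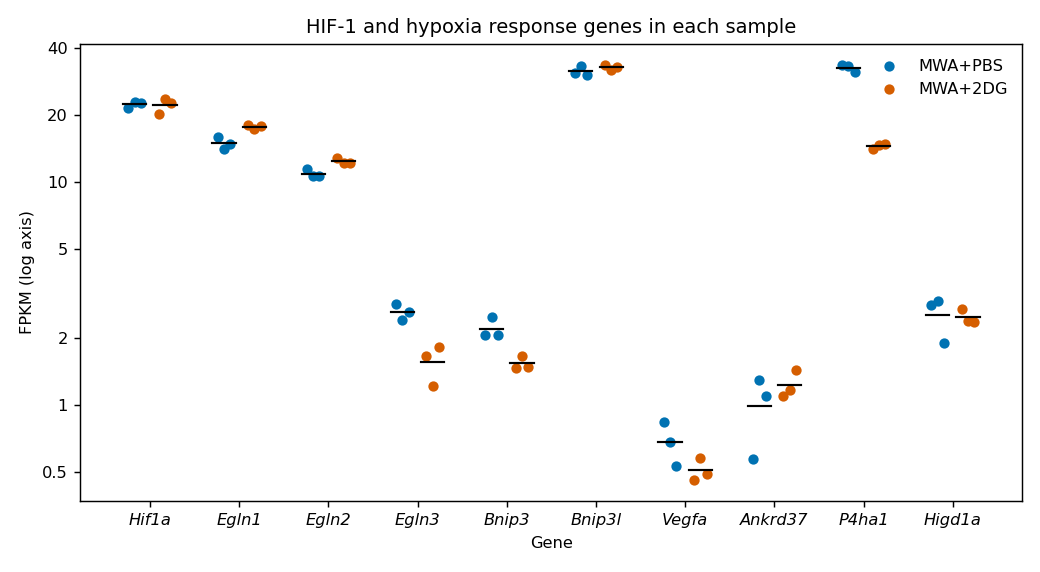
FPKM of the 10 genes in each of the 6 samples on a log axis, with a line at each group mean. The P4ha1 samples of MWA+2DG lie at 13.97 to 14.73, far below the 31.07 to 33.52 of MWA+PBS, while the Hif1a samples of both groups overlap.

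**Figure D3:**
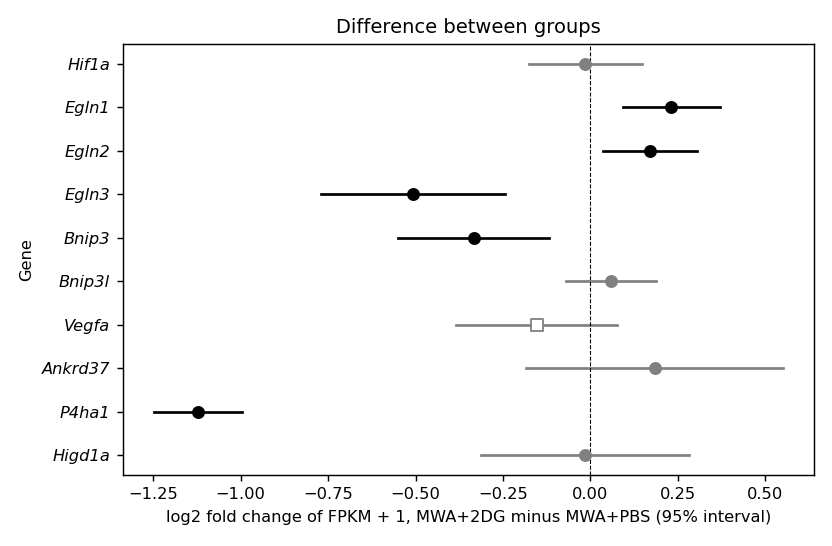
Log2 fold change (MWA+2DG minus MWA+PBS) of each gene with its 95% confidence interval, in black where the gene passed the test and in grey where it did not. Vegfa (white square) comes from a fit without the filter on low values. P4ha1 is at -1.12, and the intervals of Hif1a, Bnip3l, Vegfa, Ankrd37 and Higd1a include 0.

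Hif1a, which encodes the regulated subunit of HIF-1, did not pass the test on the deposited scale, but was called lower with T lineage genes set equal. Hif1a was at 21.39, 22.90 and 22.55 FPKM in the MWA+PBS samples and at 20.12, 23.56 and 22.56 in the MWA+2DG samples. The groups overlapped, and the lowest and the highest value both belonged to MWA+2DG. The means were 22.28 ± 0.790 and 22.08 ± 1.77 FPKM (SD, n = 3). The log2 difference was -0.01 ± 0.07 (SE), with a 95% interval from -0.18 to 0.15 and a limma adjusted p of 0.884. With T lineage genes set equal it was -0.49 (adjusted p = 0.00118 by limma). Hif1a was well expressed, above 84% of the tested genes. On the deposited scale, the sign of so small a difference changed when single samples were left out, from -0.06 to 0.05. An antisense gene, Gm15283, overlaps Hif1a and was at 0.2 to 0.44 FPKM. A protein-coding gene on the same strand, Gm49321, also overlaps Hif1a and is 100% identical to it over 151 bases. Gm49321 had no FPKM value, so its part in the Hif1a level is unknown.

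Of the 4 closest partners of Hif1a, Hif1an rose and Epas1, Arnt and Vhl did not pass the test. Epas1, which encodes the related HIF-2 alpha subunit, was near the limit of the filter at 1.2 ± 0.219 and 0.893 ± 0.116 FPKM (adjusted p = 0.182 by limma). The Hif1a level was 15.73 to 24.11 times that of Epas1 without 2DG and 21.18 to 29.68 times with 2DG, with overlapping groups. Arnt, the partner subunit, was at 8.667 ± 0.447 and 9.77 ± 0.195 FPKM (adjusted p = 0.0703 by limma), with groups that did not overlap. Vhl, which targets the hydroxylated subunit for degradation, was at 6.293 ± 0.276 and 6.417 ± 0.351 FPKM (adjusted p = 0.802 by limma). Hif1an, an asparaginyl hydroxylase that blocks the binding of coactivators to HIF, was at 7.67, 6.73 and 7.99 FPKM in MWA+PBS and at 10.11, 10.79 and 9.18 in MWA+2DG. All 3 MWA+2DG samples were above all 3 MWA+PBS samples. Hif1an rose by 0.38 ± 0.08 on the log2 scale (adjusted p = 0.00938 by limma), whereas with T lineage genes set equal its difference was -0.09 and did not pass (adjusted p = 0.416). On that scale the other 3 were lower, Epas1 at -0.69 (adjusted p = 0.00166 by limma), Arnt at -0.32 (0.00329) and Vhl at -0.45 (0.000821).

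The 3 prolyl hydroxylases, which sense oxygen and mark HIF alpha subunits, moved in different directions on the deposited scale, where Egln1 and Egln2 were slightly higher with 2DG and Egln3 was lower. With T lineage genes set equal, all 3 were lower, Egln3 at -0.98 (adjusted p = 0.000107 by limma). Egln1 encodes the main sensor of oxygen in most cells, and Egln3 is itself a HIF target whose mRNA rises in hypoxia. The tests below are those of limma across all genes.

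Egln3 was at 2.84, 2.40 and 2.62 FPKM in MWA+PBS and at 1.65, 1.21 and 1.81 in MWA+2DG. Every MWA+2DG sample was below every MWA+PBS sample. The means were 2.62 ± 0.22 and 1.557 ± 0.311 FPKM, a 1.68-fold lower level. Egln3 fell by 0.51 ± 0.11 on the log2(FPKM + 1) scale, with a 95% interval from -0.77 to -0.24 and an adjusted p of 0.01 by limma. This scale understates the change of a gene at so low a level, and 9.39% of the tested genes had a larger fall. The call held in all 8 other settings that tested the gene and without each sample in turn (adjusted p up to 0.0403). It was lost when MWA+PBS samples 1 and 2, those with Kap, were left out together (-0.51, adjusted p = 0.0814 by limma).

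Egln1 was at 15.90, 14.08 and 14.80 FPKM in MWA+PBS and at 17.95, 17.25 and 17.86 in MWA+2DG. The groups did not overlap, and the gap between them was small. The means were 14.93 ± 0.917 and 17.69 ± 0.381 FPKM, 18.5% higher with 2DG. The log2 difference was 0.23 ± 0.06, with a 95% interval from 0.09 to 0.37 (adjusted p = 0.0186 by limma), whereas with T lineage genes set equal it was -0.24 (adjusted p = 0.00774). The call was lost, with a difference of like size, without MWA+PBS sample 3 (0.23, adjusted p = 0.0504), without MWA+2DG sample 4 (0.22, 0.0655) or sample 6 (0.23, 0.0646), and without both samples with Kap (0.24, 0.0554), all by limma.

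Egln2, the hydroxylase that is largely nuclear, was at 11.48, 10.63 and 10.58 FPKM in MWA+PBS and at 12.80, 12.21 and 12.16 in MWA+2DG. The groups again did not overlap. The means were 10.9 ± 0.506 and 12.39 ± 0.356 FPKM, 13.7% higher with 2DG. The log2 difference was 0.17 ± 0.06, with a 95% interval from 0.04 to 0.31 (adjusted p = 0.0492 by limma), and with T lineage genes set equal it was -0.30 (adjusted p = 0.00202). This rise was at the edge of the threshold, since leaving out any 1 of the 6 samples gave an adjusted p between 0.0581 and 0.155 by limma. Cyp2t4, on the opposite strand, overlaps Egln2 and was at 0.26 to 0.66 FPKM.

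The make-up of the hydroxylase trio can be read within each sample, where the scaling of the library cancels. Egln3 made up 9.40%, 8.85% and 9.36% of the summed FPKM of the trio in MWA+PBS and 5.09%, 3.95% and 5.69% in MWA+2DG. The share of Egln3 was thus lower in each MWA+2DG sample than in any MWA+PBS sample, at a mean of 9.20% ± 0.304 against 4.91% ± 0.885. Egln1 made up 52.5% ± 0.477 and 55.9% ± 0.453, also without overlap, and Egln2 made up 38.3% ± 0.771 and 39.2% ± 0.854, with overlap. With 3 samples against 3, an exact two-sided permutation test of such a share cannot go below 0.1, the value reached for Egln3 and for Egln1. The summed level of the trio was 28.44 ± 1.602 FPKM without 2DG and 31.63 ± 0.882 with 2DG, so the lower Egln3 was a small part of the total.

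Bnip3 and Bnip3l encode related receptors on the outer mitochondrial membrane that recruit the machinery of mitophagy, and both are known HIF targets. They differed here in level, and on the deposited scale Bnip3 passed the test and Bnip3l did not. With T lineage genes set equal, both were lower, Bnip3 at -0.81 (adjusted p = 0.00024 by limma) and Bnip3l at -0.42 (0.000252). Bnip3 was at 2.05, 2.48 and 2.06 FPKM in MWA+PBS and at 1.46, 1.66 and 1.48 in MWA+2DG. The groups did not overlap, and MWA+PBS sample 2 was the highest. The means were 2.197 ± 0.245 and 1.533 ± 0.110 FPKM, a 1.43-fold lower level. Bnip3 fell by 0.33 ± 0.09 on the log2 scale, with a 95% interval from -0.55 to -0.12 (adjusted p = 0.0246 by limma). The call was lost without MWA+PBS sample 2 (-0.27, adjusted p = 0.0554), without MWA+2DG sample 4 (-0.31, 0.0767) or sample 6 (-0.32, 0.0746), and without both samples with Kap (-0.27, 0.17), all by limma. Without the filter on low values the difference was the same, -0.33, with an adjusted p of 0.0653 by limma. Near-identical copies of Bnip3 (at least 95% over 100 bases or more) elsewhere in the genome were at 0.33 FPKM or less.

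Bnip3l was the more abundant receptor and did not pass the test on the deposited scale. Bnip3l was at 30.67, 33.03 and 30.14 FPKM in MWA+PBS and at 33.37, 31.77 and 32.68 in MWA+2DG. The groups overlapped. The means were 31.28 ± 1.54 and 32.61 ± 0.803 FPKM, and the log2 difference of 0.06 ± 0.06 had a 95% interval from -0.07 to 0.19 (adjusted p = 0.429 by limma). The pseudogene Bnip3l-ps, 99.2% identical over 663 bases, was at 7.44 to 11.15 FPKM, so fragments may have been split between the pair and the level of Bnip3l is uncertain. Bnip3 made up 6.27%, 6.98% and 6.398% of the summed FPKM of both receptors in MWA+PBS and 4.19%, 4.97% and 4.33% in MWA+2DG, without overlap (6.55% ± 0.383 against 4.50% ± 0.412, exact two-sided permutation p = 0.1, the smallest that 3 against 3 allows). Bnip3l is known for clearing mitochondria from maturing red cells, and the summed erythroid markers were at 295.3 to 351 FPKM without 2DG and 67.71 to 85.21 with 2DG. Their part in the level of Bnip3l was not tested.

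P4ha1 had the clearest difference of the group. It encodes the catalytic alpha subunit of collagen prolyl 4-hydroxylase, an oxygen-using enzyme of the endoplasmic reticulum and a HIF-1 target. P4ha1 was at 33.52, 33.11 and 31.07 FPKM in MWA+PBS and at 13.97, 14.58 and 14.73 in MWA+2DG. The groups lay far apart, and the spread within each was small. The means were 32.57 ± 1.31 and 14.43 ± 0.403 FPKM, a 2.26-fold lower level with 2DG. P4ha1 fell by 1.12 ± 0.05 on the log2 scale, with a 95% interval from -1.25 to -0.99 (adjusted p = 6.66e-06 by limma). Of the 12444 tested genes, 394 (3.17%) had a larger fall. The call held in all 9 other settings, without each sample in turn (adjusted p up to 9.68e-05) and without both samples with Kap (-1.06, adjusted p = 0.0011).

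P4hb, the beta subunit of the same enzyme and a general disulfide isomerase, fell as well. P4hb was at 91.74, 93.17 and 93.76 FPKM in MWA+PBS and at 57.36, 55.89 and 59.33 in MWA+2DG (log2 difference -0.68, adjusted p = 4.4e-05 by limma). The ratio of P4ha1 to P4hb within a sample was 0.365, 0.355 and 0.331 in MWA+PBS and 0.244, 0.261 and 0.248 in MWA+2DG, so the alpha subunit was lower relative to the beta subunit in every MWA+2DG sample. The macrophage markers above fell in the same samples, and both subunits are also made by cells other than T cells. Their part in the fall of P4ha1 was not tested.

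The other 3 targets were weakly expressed and did not pass on the deposited scale. Vegfa, the main growth factor of blood vessels, was at 0.84, 0.68 and 0.53 FPKM in MWA+PBS and at 0.46, 0.58 and 0.49 in MWA+2DG. The groups overlapped at 0.53 to 0.58. In a fit without the filter on low values the log2 difference was -0.15 ± 0.09, with a 95% interval from -0.38 to 0.08 (adjusted p = 0.347 by limma).

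Higd1a, a small protein of the inner mitochondrial membrane that is induced by hypoxia, was at 2.79, 2.93 and 1.89 FPKM in MWA+PBS and at 2.68, 2.38 and 2.36 in MWA+2DG. MWA+PBS samples held both the highest and the lowest value. The means were 2.537 ± 0.564 and 2.473 ± 0.179 FPKM, and the 95% interval of the log2 difference ran from -0.31 to 0.28 (adjusted p = 0.939 by limma). With T lineage genes set equal the difference was -0.49 and passed (adjusted p = 0.00473 by limma).

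Ankrd37, an ankyrin repeat protein with a HIF-responsive promoter, was at 0.57, 1.29 and 1.10 FPKM in MWA+PBS and at 1.09, 1.17 and 1.44 in MWA+2DG. MWA+PBS sample 1 was the lowest and the groups overlapped. The means were 0.987 ± 0.373 and 1.233 ± 0.183 FPKM, and the log2 difference of 0.18 ± 0.16 had a 95% interval from -0.18 to 0.55 (adjusted p = 0.389 by limma), while with T lineage genes set equal it was -0.29 (adjusted p = 0.139). Ankrd37 overlaps Ufsp2, which lies on the opposite strand and was at 3.83 to 5.28 FPKM. Whether strand was used in the quantification is not stated, so the level of Ankrd37 is uncertain.

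Set in order of level, the genes ran from Bnip3l and P4ha1 to Vegfa. In MWA+PBS, P4ha1 (31.07 to 33.52 FPKM) and Bnip3l (30.14 to 33.03) overlapped at the top, followed without overlap by Hif1a, Egln1 and Egln2. Egln3, Higd1a and Bnip3 overlapped one another between 1.89 and 2.93 FPKM, and Ankrd37 and Vegfa overlapped below 1.29. In MWA+2DG, P4ha1 moved to a place between Egln1 (17.25 to 17.95) and Egln2 (12.16 to 12.80), and Bnip3l was alone at the top.

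**Figure D4:**
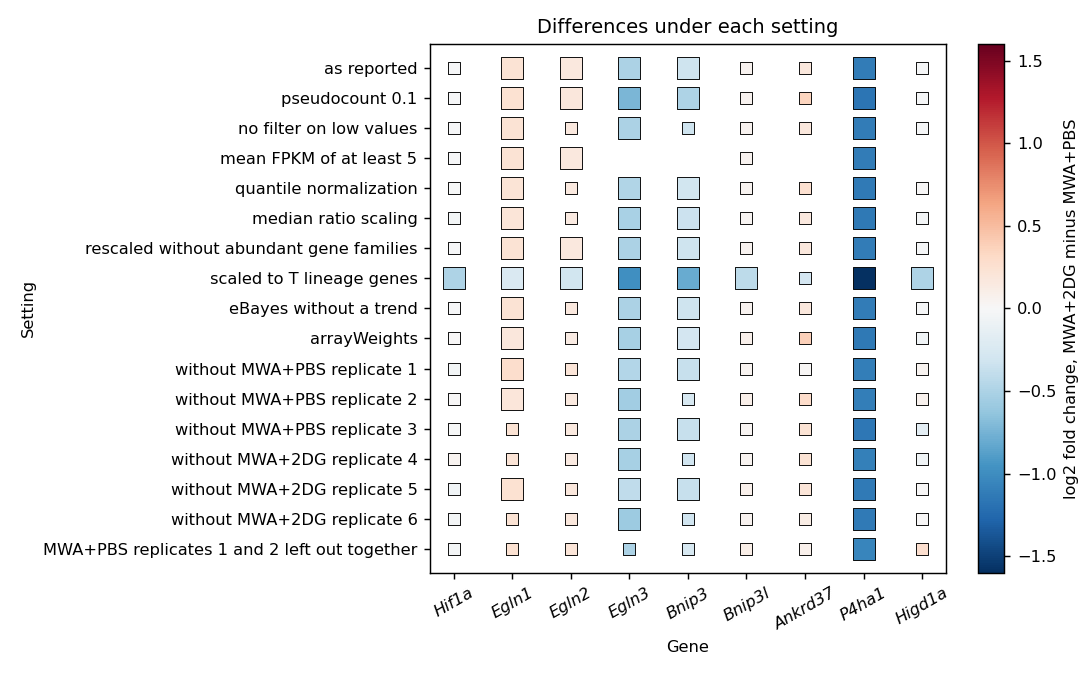
Log2 fold change of the 9 tested genes (columns) under each setting (rows), with the colour of a square giving the value and large squares an adjusted p under 0.05. P4ha1 passed in every row, Egln3 passed in each row that tested it but the one with MWA+PBS replicates 1 and 2 left out together, and Egln2 lost it in most rows.

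Other genes of the pathway were counted in lists written by hand. Among 15 tested of 17 partners of oxygen sensing, 3 rose, 3 fell and 9 did not pass, with a median log2 difference of 0.02. The fall was led by Siah2, a ubiquitin ligase that degrades prolyl hydroxylases, including that of Egln3. Siah2 was at 4.123 ± 0.422 FPKM without 2DG and 1.567 ± 0.233 with 2DG (log2 difference -0.998, adjusted p = 0.00026 by limma). Cited2, a HIF target that competes with HIF-1 for its coactivators, was at 12.73 ± 0.56 and 7.77 ± 0.148 FPKM (-0.65, adjusted p = 0.00013 by limma). Besides Hif1an, Siah1a, a relative of Siah2, rose from 12.64 ± 1.25 to 16.13 ± 1.05 FPKM (0.33, adjusted p = 0.0169 by limma), but was at -0.14 with T lineage genes set equal (adjusted p = 0.136). The Siah1a call was lost without MWA+2DG sample 5 (adjusted p = 0.0523 by limma) or sample 6 (0.0614).

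Among 23 tested of 39 further HIF targets, 1 rose, 7 fell and 15 did not pass (median -0.06). The genes that fell were Hmox1, Cxcr4, Plod1, Pdgfb, Bhlhe40, Ndrg1 and Tfrc. The Ndrg1 call was lost without MWA+PBS sample 1 or any 1 MWA+2DG sample (adjusted p from 0.0545 to 0.0758 by limma), and that of Tfrc without MWA+PBS sample 1 or 2 or MWA+2DG sample 4 or 5 (0.0535 to 0.0804). Hmox1, which breaks down heme, was at 229.18, 211.17 and 223.24 FPKM in MWA+PBS and at 27.45, 25.17 and 28.09 in MWA+2DG, an 8.22-fold lower level (log2 difference -2.99, adjusted p = 1.87e-07 by limma). Red pulp macrophages are known to express Hmox1 strongly, and their markers fell in the same samples. The part of that fall in the Hmox1 value was not tested. Cxcr4, a chemokine receptor, was at 128.2 ± 6.35 and 60.93 ± 3.23 FPKM (-1.06, adjusted p = 1.73e-05 by limma). Kdm4c, a histone demethylase, was at 8.933 ± 0.575 and 10.38 ± 0.310 FPKM (0.20, adjusted p = 0.0423 by limma), but at -0.28 with T lineage genes set equal (adjusted p = 0.00694). The Kdm4c call was lost without any single sample other than MWA+PBS sample 2 (adjusted p from 0.0668 to 0.146 by limma).

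Among 18 tested of 21 glycolytic HIF targets, 6 rose, 5 fell and 7 did not pass (median -0.09). The members moved both ways. Without MWA+2DG sample 4, 5 or 6 the number that rose was 3, since Slc2a1, Pfkfb3 and Pfkfb4 lost their calls. Slc2a3, a glucose transporter, was at 8.37, 7.57 and 7.45 FPKM in MWA+PBS and at 14.78, 14.15 and 14.92 in MWA+2DG (0.83, adjusted p = 6.02e-05 by limma). Pdk1, a kinase that restrains pyruvate entry into mitochondria, rose from 3.333 ± 0.110 to 5.977 ± 0.185 FPKM (0.69, adjusted p = 0.000155 by limma). These were the 2 genes of all 6 lists that stayed higher with T lineage genes set equal, at 0.35 and 0.21. That scaling does not remove the RNA of other cells, and neutrophil and B cell markers rose in the same samples. Their part in these 2 values was not tested. Tpi1, a glycolytic isomerase, fell from 25.49 ± 1.95 to 16.49 ± 1.09 FPKM (-0.60, adjusted p = 0.000733 by limma). Hk2, an inducible hexokinase, fell from 3.257 ± 0.125 to 1.843 ± 0.252 FPKM (-0.59, adjusted p = 0.00189 by limma).

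Among 14 tested of 15 mitophagy genes, 3 rose, 4 fell and 7 did not pass (median -0.10), and 1 rose without MWA+2DG sample 4 or 6. Gabarapl1, an autophagosome protein that mitophagy receptors such as BNIP3L bind, was at 8.15, 9.44 and 8.96 FPKM in MWA+PBS and at 2.20, 2.77 and 1.75 in MWA+2DG, a 3.95-fold lower level (-1.61, adjusted p = 5.59e-05 by limma). Optn, an autophagy receptor of the ubiquitin-dependent route, fell from 2.453 ± 0.0208 to 0.927 ± 0.182 FPKM (-0.85, adjusted p = 0.000491 by limma). Bcl2, an inhibitor of cell death, rose from 25.78 ± 0.404 to 35.27 ± 1.31 FPKM (0.44, adjusted p = 0.000487 by limma), and Fkbp8, another mitochondrial receptor, from 24.16 ± 1.88 to 28.53 ± 1.24 (0.23, adjusted p = 0.0316 by limma). With T lineage genes set equal these differences were -0.04 for Bcl2, which did not pass (adjusted p = 0.606 by limma), and -0.24 for Fkbp8, a call in the opposite direction (adjusted p = 0.00537). On the deposited scale, the Fkbp8 call was lost without MWA+PBS sample 2 or 3 or MWA+2DG sample 4 or 6 (adjusted p from 0.0535 to 0.107 by limma).

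Of the relatives of Vegfa, 3 of 9 were high enough to test. Vegfb, a related growth factor, was at 5.547 ± 1.201 and 3.62 ± 0.171 FPKM (-0.49, adjusted p = 0.0245 by limma), a call lost without any single sample other than MWA+PBS sample 2 (adjusted p from 0.0503 to 0.0807). Nrp1, a coreceptor, was at 1.637 ± 0.313 and 0.637 ± 0.080 FPKM (-0.68, adjusted p = 0.00333 by limma). Nrp2, the other coreceptor, was at 1.05 ± 0.184 and 1.163 ± 0.0961 FPKM and did not pass (adjusted p = 0.583 by limma). Of the relatives of P4ha1 and Higd1a, 2 of 7 were tested, and P4hb passed while Higd2a did not (26.97 ± 4.64 and 25.21 ± 2.74 FPKM, adjusted p = 0.645 by limma). Over the 6 lists, 13 of 75 tested genes rose (17.3%) and 22 fell (29.3%), where 22.3% and 17.1% of all tested genes did. With T lineage genes set equal, 2 were higher and 66 lower, on a scale where 73.5% of all tested genes were lower. Of the 35 called genes, 13 lost the call without at least 1 single sample.

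**Figure D5:**
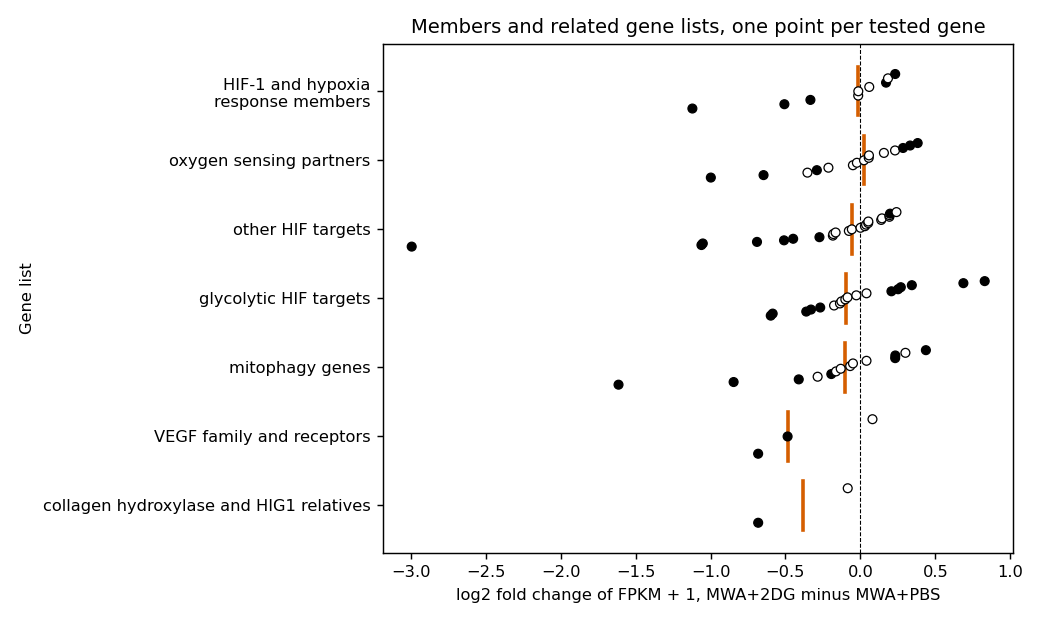
Log2 fold change of each tested gene in the 6 related lists, filled where the gene passed the test, with an orange bar at the median of each list. Hmox1 is the lowest point at -2.99, and the medians of the 4 larger lists lie between -0.10 and 0.02.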

How the data were processed

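Bulk RNA-seq of splenic CD8+ T cells was analysed in 6 samples, 3 MWA+PBS and 3 MWA+2DG, grouped by their GEO labels. Poly(A) libraries were strand-marked and carried molecular identifiers. The authors deposited FPKM per gene. The study's methods name fastp, HISAT2, StringTie and ballgown, and the submitters' processing notes list cutadapt 1.9, HISAT2 2.0.4, UMI-tools, StringTie 1.3.4d and mm9. The annotation and the use of strand are not stated in the sources used here. FPKM gives no depth, so no counting interval is given.

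Each file listed 28773 gene IDs, and 28689 had a symbol in GENCODE M21. Aldoa matched more than 1 ID and Ppp1r3c, Tmem45a and Higd1c matched none, so they were left out. Genes with a mean of at least 1 FPKM were fitted on log2(FPKM + 1) in limma 3.58.1 under R 4.3.3, using lmFit and a trended eBayes. The model held the group alone, differences are MWA+2DG minus MWA+PBS, tests were two-sided and p-values were adjusted by Benjamini-Hochberg over all 12444 genes. The fit was tested on simulated data. Shares within a sample had an exact permutation test. Alternatives were a pseudocount of 0.1, no filter, a mean of at least 5 FPKM, quantile normalization, scaling to T lineage genes, scaling by median ratios, totals that left out ribosomal protein, haemoglobin, immunoglobulin and mitochondrial genes, no trend, arrayWeights, the study's call rule and leaving out each sample. Leaving out MWA+PBS samples 1 and 2 together was added after the Kap values were seen. The 10 genes and the lists were chosen with earlier results of these data known. From each list the 2 called genes with the largest rise and the 2 with the largest fall were named, with Epas1, Arnt, Vhl and Hif1an. Other list genes and markers named were chosen after their values were seen. Promoter letters came from RefSeq (GRCm38.p6), overlaps from GENCODE M21 and near-identical copies from BLAST 2.17.0 of its transcripts. Protein sequences were not used here.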

Additional observations from a re-analysis of the deposited data

How the results depend on the processing

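P4ha1 kept its fall in all alternatives run, and Egln3 kept its own in the 8 that tested it and without each sample in turn. The number of the 10 genes called higher (2) was 1 with no filter on low values, quantile normalization, median ratio scaling, no trend or arrayWeights, 0 with T lineage scaling and under the study's call rule, and 0 to 1 without single samples, and the cause was not tested. The number called lower (3) was 1 at a mean of at least 5 FPKM, where Egln3, Bnip3, Ankrd37 and Higd1a were not tested, 8 with T lineage scaling and 2 to 3 without single samples. Calls over all genes (4907) were 2951 at a mean of at least 5 FPKM, where 7313 genes were tested, 9541 with T lineage scaling and 3706 to 5195 without single samples. List genes called higher (13) were 8 with no filter, 2 with T lineage scaling and 6 to 13 without single samples, being 7, 7 and 6 without MWA+2DG samples 4, 5 and 6. List genes called lower (22) were 12 at a mean of at least 5 FPKM, 66 with T lineage scaling and 16 to 23 without single samples. T lineage scaling by construction moved every difference by -0.48 and turned Egln1 to -0.24, Egln2 to -0.30, Bnip3l to -0.42 and Ankrd37 to -0.29. Differences that never passed as deposited changed sign for Hif1a with arrayWeights (0.0002) and for Higd1a with quantile normalization (0.0071), and ran from -0.0611 to 0.0478 and from -0.1533 to 0.0684 without single samples. With MWA+PBS samples 1 and 2 left out together, the lone MWA+PBS sample being assumed to vary like the others, 0 of the 10 genes were higher and 1 was lower, and Higd1a was at 0.26. Egln2 was called in the same direction in 3 of the 9 other settings. No paired analysis was possible because MWA+PBS carries numbers 1 to 3 and MWA+2DG 4 to 6, none of them shared. The depth is unknown, which leaves the precision of the low genes (Vegfa, Ankrd37, Bnip3, Egln3, Higd1a) to the spread between samples.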
